A study of Homo sapiens with 34 samples.

Results

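Acetylation of histone H3 at lysine 27 (H3K27ac) was mapped in DLD1 cells, a colorectal adenocarcinoma line, before and after induction of a dominant negative TCF7L2. All regions of the H3K27ac peak lists on the 22 autosomes and X were taken, and list rows with the same start and end were collapsed to 1 region. This gave 78005 regions in uninduced and 79987 in induced cells, 157992 of the 265904 regions in the 4 peak lists of the series, the other lists being for RNA polymerase II (Pol II). Cells of both groups were the same line, labelled DLD1 (DNTCF), with a Tet-inducible transgene for the dominant negative factor, and both were grown with zeocin and blasticidin. Uninduced cells had no treatment and induced cells had 1 µg/mL doxycycline for 24 h, so doxycycline itself and the transgene cannot be told apart. Each group had 2 samples and each condition 1 input sample. Nothing in the labels says whether the line is 1 clone. The series holds 34 samples, 24 of them RNA-seq, which were not analysed here.

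H3K27ac is laid down by the acetyltransferases p300 and CBP on nucleosomes that flank active promoters and enhancers, and the accessible DNA between those nucleosomes is where transcription factors bind. In Wnt signalling, β-catenin enters the nucleus and acts through TCF and LEF factors bound to DNA. A dominant negative TCF lacks the part that binds β-catenin and occupies the sites without activating them. In the intestinal crypt this pathway maintains stem and progenitor cells, and colorectal cancers usually carry it in a permanently active state.

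The labels tie 1 list to both samples of a group, so no spread between replicates could be measured, no p-value is given, and every difference stands without a replicate check. Intervals are Wilson 95% intervals and cover counting error only. Depth is known only as the labels' range of 40 to 55M single reads of 75 bp per sample. At the same fold enrichment, the −log10 q of the summits listed inside regions was lower in the induced list. For fold values of 10 to 11 the uninduced median was 52.3 and the induced 44.4, and for fold values of 20 to 22 it was 156.1 and 124.3. The smallest region was 277 bp in the uninduced and 268 bp in the induced list, with 924 and 922 regions at exactly that width, and no gap between neighbouring regions was under 76 bp in either list. Fold enrichment itself ran higher in the induced list among strong regions. Where an uninduced and an induced region overlapped each other alone and both had a −log10 q of at least 80 (14686 pairs), the median fold was 21.7 and 24.0, and it was higher in induced cells in 67.3% of pairs. Fold and −log10 q depend on depth and input, so values given side by side below describe each list and are no measure of change. These differences between the lists move with the widths and splits below, and their part in those results was not tested. Of 15 colorectal epithelial marker genes, all 15 had H3K27ac around them in both lists, from 2.733 to 47.604 kb of covered length in the uninduced and from 5.137 to 46.535 kb in the induced list. Among 20 immune, stromal and endothelial markers 4 had no region within 10 kb in either list, and among 20 liver, muscle and neuron markers 7 had none. Most markers of these 2 lists thus had regions too, with up to 17.968 and 11.207 kb in the uninduced list. Median covered length there was 15.763 kb for the epithelial, 5.013 kb for the immune, stromal and endothelial, and 2.082 kb for the liver, muscle and neuron markers.

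Induced cells had more regions, which were narrower and covered less of the genome. Total covered length was 136.6 Mb in uninduced and 132.6 Mb in induced cells. The median region was 1159 bp wide in uninduced cells (quartiles 522 to 2288 bp) and 1040 bp in induced cells (493 to 2172 bp). Regions under 500 bp made up 23.4% of the uninduced and 25.5% of the induced list. Regions of 6 kb or wider numbered 2503 and 2321. At gene ends, meaning up to 1 kb from the start or the end of a protein-coding gene, the medians lay close together at 2200 and 2151 bp. Within genes they were 960 and 850 bp, and between genes 933 and 854 bp. The widest region was nearly the same in both lists, 107742 and 107626 bp.

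Summits, the local maxima that the peak caller lists inside a region, were spaced more tightly in induced cells. The median distance between neighbouring summits of a region was 661 bp in uninduced and 640 bp in induced cells, and there were 1.29 and 1.35 summits per covered kb. Single-summit regions made up 46.2% of the uninduced and 48.2% of the induced list. At the other end, regions with 5 or more summits were 8.66% and 8.82%. Both tails therefore held a larger share of the induced list, and the mean number of summits per region was 2.26 and 2.24.

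**Figure D1:**
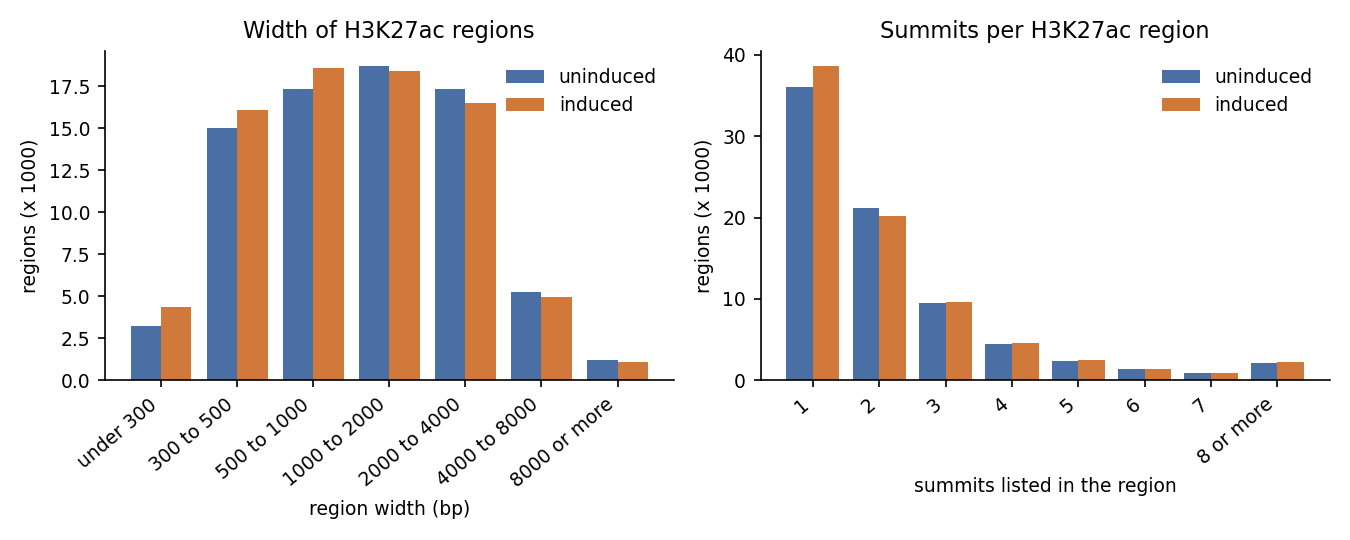
Number of H3K27ac regions by region width in bp (left) and by number of listed summits (right), for the uninduced and induced lists. Induced bars are higher in the 3 bins below 1000 bp and lower in the 4 bins from 1000 bp up, and single-summit regions number 36066 and 38583.

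Most regions kept a single counterpart. Of the uninduced regions 52104, or 66.8%, overlapped exactly 1 induced region that overlapped no other, and these one-to-one pairs held 65.1% of the induced regions. A further 6142 uninduced regions were each met by 2 or more induced regions (splits, 7.87% of the uninduced list), and 3239 induced regions each joined 2 or more uninduced ones (merges, 4.05% of the induced list). In 768 groups several regions of both lists overlapped in a chain. No partner was found for 11336 uninduced and 9862 induced regions.

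Inside the one-to-one pairs the typical width hardly moved. The median width was 1391 bp in uninduced and 1352 bp in induced cells, and the median log2 ratio of widths (induced over uninduced) was -0.01, with quartiles of -0.18 and 0.13. Pairs past 1.5-fold were more often narrower than wider in induced cells: 4622 were narrower (8.87% of all pairs) and 3134 were wider (6.01%). Most of these were weak regions. Where the weaker member of the pair had a −log10 q under 5, 23.4% of pairs were narrower and 16.8% wider, and from 5 to 20 the shares were 13.6% and 8.68%. From 20 to 80 they were 2.63% and 1.70%. At 80 and above only 27 of 14686 pairs were narrower and 20 wider. By place, 1.98% of pairs at gene ends were narrower and 1.31% wider, against 11.4% and 6.91% within genes and 10.1% and 7.68% between genes. More pairs were narrower than wider in 21 of 23 chromosomes, the exceptions being chromosome 19 with 90 narrower and 114 wider and chromosome 21 with 52 and 53. Chromosome 19 was also the only chromosome on which the induced list covered more than the uninduced one, at 101.1% of its length, and the lowest value was 94.4% on chromosome 5.

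The largest width changes among pairs with a −log10 q of at least 20 in both lists mostly had fewer or more summits beside a strongest summit that stayed in place. In FGF12, a gene of the fibroblast growth factor family, a region of 3040 bp with 4 summits (chr3:192154392-192157431, GRCh38) was 812 bp with 1 summit in induced cells, and the strongest summit moved by 6 bp. In RNF216, a ubiquitin ligase gene, a region went from 2123 to 611 bp and from 3 summits to 1, and its strongest summit moved by 19 bp. A region in KANSL1, a chromatin regulator gene, went from 1922 to 640 bp. In the other direction, a region 17.3 kb from ETV3, an ETS family repressor gene, was 574 bp with 1 summit in uninduced cells and 1933 bp with 3 summits in induced cells, with the strongest summit 5 bp away. A region in RAB27B, a vesicle traffic gene, went from 681 to 1910 bp and from 1 summit to 3, and one in CARD10 from 1011 to 2437 bp and from 1 to 4. In SLC49A3 a region went from 698 to 1660 bp. The region 30.2 kb from SLC15A1, which encodes the intestinal peptide transporter PEPT1, widened from 511 to 1215 bp with 1 summit in both lists. Each of these is a single comparison of 2 lists, chosen for its size.

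Paired regions gained summits more often than they lost them. Among the 52104 pairs, 33833 (64.9%) had the same number of summits in both lists, 10398 had more in induced cells and 7873 had fewer. The gain was larger in strong pairs. Where the weaker member had a −log10 q of 80 or above, 3968 pairs had more and 2365 fewer summits, and the mean rose from 3.54 to 3.71 while the median width stayed near 2800 bp, at 2799.5 and 2798 bp. Where it was under 5, the direction turned, with 1182 pairs gaining and 1280 losing summits. The strongest pairs thus held more summits in the same width in induced cells.

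Splitting was about 1.90 times as common as merging. Of the 9381 regions in either class, splits made up 65.5% (64.5 to 66.4), and splits outnumbered merges on 22 of 23 chromosomes. The exception was chromosome 22, with 84 splits and 88 merges, and the highest share, 75%, was on chromosome 18. Splits were commoner among wide regions: 30.7% of uninduced regions of 6 kb or wider were split, and 20.2% of induced regions of that size were merges. For regions of 1 to 2 kb the shares were 9.93% and 5.23%. By strength, 11.8% of uninduced regions with a −log10 q of 80 or above were split and 6.62% of such induced regions were merges.

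Most splits opened a short gap between pieces. Of the 6142 split regions 5486 fell into 2 pieces, 553 into 3 and 103 into 4 or more, against 31 merges of 4 or more. The gap was 166 bp at the median (quartiles 113 to 249 bp), and 61.1% of gaps were under 200 bp. Gaps between the uninduced regions that merges joined were alike, 153 bp at the median (quartiles 107 to 244 bp), with 65.4% under 200 bp. Chromatin was sheared to 250 to 300 bp, longer than most of these gaps, and a link of the gaps to nucleosomes was not tested. Only 10.7% of gaps held a summit of the unsplit region, and the rest lay between listed summits or outside them. When regions of 1 list closer than 200 bp were joined first, 4047 splits and 2141 merges were left, with the share at 65.4%. When those closer than 500 bp were joined, 1548 and 1152 were left, a share of 57.3%. At 1000 bp the difference was nearly gone, with 965 splits and 871 merges and a share of 52.6% (50.3 to 54.8). Raising the minimum strength did not close it to that extent: with regions of −log10 q of at least 20 alone there were 1527 splits and 710 merges, and at 80 there were 350 and 246, a share of 58.7%.

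**Figure D2:**
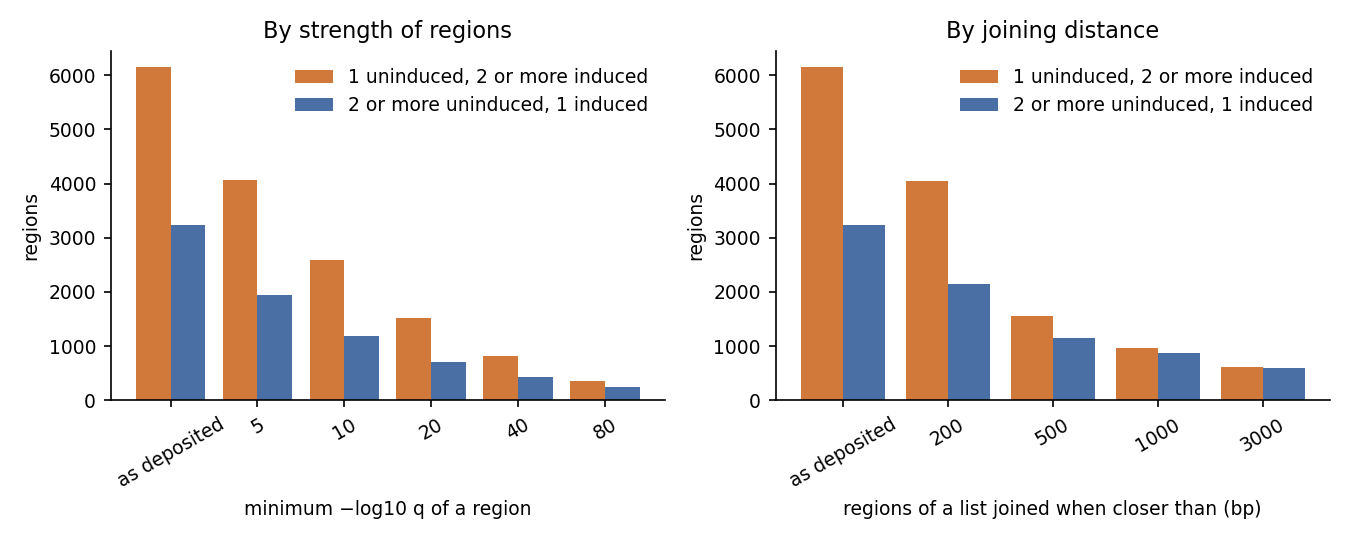
Number of splits (1 uninduced region met by 2 or more induced ones) and merges (2 or more uninduced regions joined in 1 induced one). The left panel raises the minimum −log10 q of the regions compared and the right panel joins neighbouring regions closer than the distance in bp. The bars draw level at 1000 bp (965 and 871) but not with rising strength.

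Gene starts were seldom where a region broke. Outside chromosome 8, whose starts were not used here, 3.65% of split gaps had their centre within 500 bp of a gene start, as had 4.41% of merged gaps. Midpoints between neighbouring summits of the same region lay there in 9.85% of uninduced and 10.1% of induced cases. These midpoints come from all regions with several summits, split or not, and breaks can also fall elsewhere, so the sets are not alike. The split gaps near a start lay upstream of it in 212 cases and downstream in 29, and the summit midpoints upstream in 6241 and downstream in 3003. Of the split regions 14.98% were at a gene end, against 17.6% of all uninduced regions, and of merges 18.6%, against 17.2% of all induced regions.

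The region that fell into the most pieces was at ASCL2, which encodes a basic helix-loop-helix factor of intestinal stem cells and is a Wnt target. In uninduced cells 1 region of 16292 bp with 19 summits (chr11:2255778-2272069) covered the gene and reached well past one end of it. In induced cells the same stretch held 9 regions of 340 to 5755 bp with 20 summits. The pieces still covered 90.8% of the original length, with gaps of 77 to 364 bp. The piece at the gene kept a fold enrichment of 29.7 (26.7 for the whole uninduced region) and the far piece 20.2. The 7 pieces between them had folds from 2.25 to 7.14, and the 10 uninduced summits over the same stretch had folds from 3.13 to 8.26. The middle of the domain was thus weakly enriched in both lists. Of the 8 gaps, 5 were of 200 bp or less.

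**Figure D3:**
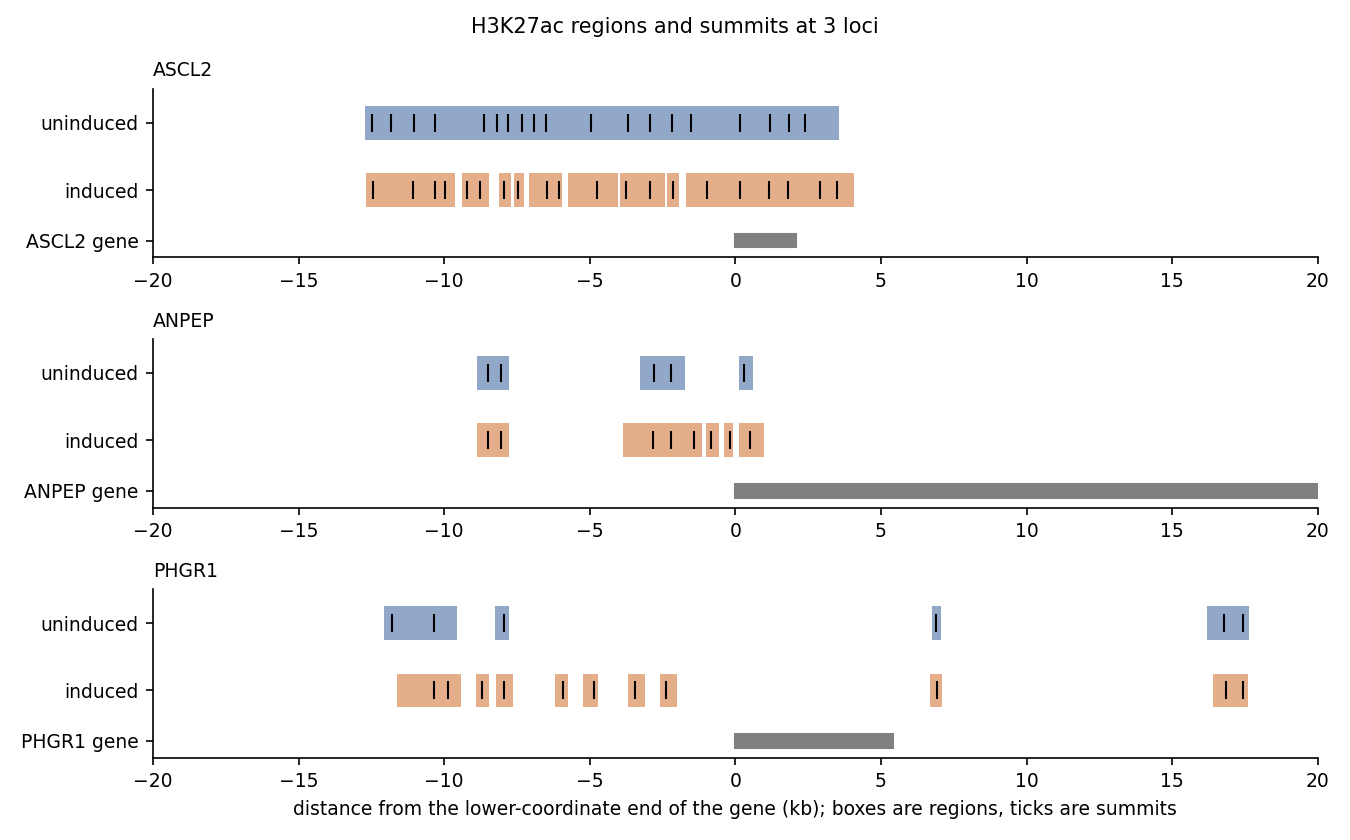
H3K27ac regions (boxes) and summits (ticks) in uninduced and induced cells around ASCL2, ANPEP and PHGR1, by distance in kb from the lower-coordinate end of each gene. At ASCL2 the single uninduced region is 9 regions in induced cells, while at ANPEP and PHGR1 induced cells have regions where the uninduced list has none.

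In the other 5 of the 6 regions with the most pieces, the pieces covered from 50.2% to 93.5% of the region. Between genes, 57.0 kb from ADRA2C, an adrenergic receptor gene that is also on the list of Wnt targets, a region of 14311 bp (chr4:3825528-3839838) was met by 6 pieces that covered 55.8% of it, with a fold of 17.2 for the whole and 11.6 for the strongest piece. A region of 12107 bp 7.72 kb from PLEKHM1, a lysosome positioning gene, was met by 7 pieces that covered 50.2%. In ABHD6, a lipase gene, 6 pieces covered 93.5% of 18540 bp. A region 95.2 kb from PRDM1, the gene of a repressor that directs terminal differentiation, was met by 6 pieces, and one in SEMA3F by 5. Among the merges, the widest of those named was at SMAD7, the gene of an inhibitory SMAD and a feedback regulator of TGF-β signalling. There 4 uninduced regions of 470 to 18107 bp became 1 induced region of 34668 bp (chr18:48921918-48956585), with the fold at 31.0 for the strongest piece and 44.3 for the whole. In FOXN1 4 regions became 1 of 13605 bp, and in STEAP3, a metalloreductase gene, 5 became 1 of 8152 bp.

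Known Wnt genes went both ways. RNF43, a ubiquitin ligase gene that removes Wnt receptors from the cell surface, had 17 regions in its neighbourhood in uninduced and 11 in induced cells, the opposite of ASCL2, while covered length was 75.137 and 73.287 kb. TCF7L2 itself had 25 and 31 regions over 56.463 and 62.194 kb. Reads from a transgene's copy of the coding sequence, where there are any, cannot be told apart from those of the native exons. At AXIN2, the feedback scaffold of the β-catenin destruction complex, the region over the gene stayed whole at 44673 bp with 59 summits and 43594 bp with 61 summits. Its neighbourhood held 2 splits and no merge, over 51.35 kb in uninduced and 47.28 kb in induced cells. In 1 of these splits a region of 4243 bp with a fold of 24.4 was met by pieces of 2807 and 288 bp, with folds of 13.8 and 2.87. CDX2, the master regulator gene of intestinal identity, had a region of 20667 bp that became 2 of 2849 and 17839 bp.

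The strongest summit of a pair moved by a median of 35 bp (quartiles 14 to 93 bp), less than the length of a nucleosome. It moved by more than 200 bp in 8057 pairs, 15.5% of all pairs. Most of them, 7244 pairs, had several summits in at least 1 list. Among the 17417 pairs with 1 summit in both lists, 813 (4.67%) moved that far. In 4211 of the shifted pairs (52.3%, interval 51.2 to 53.4), each list's strongest summit had a listed summit of the other list within 100 bp. In these pairs both lists had a summit near both positions, and the strongest one differed. The whole of the other list was searched, and how often summits lie that close by their spacing alone was not measured. Shifts of single summits belonged almost entirely to weak regions. Where the weaker member had a −log10 q under 5, 653 single-summit pairs of 6784 shifted, and where it was 80 or above 2 of 955 did.

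Summits near gene starts showed no common direction. In 8795 pairs the strongest summits of both lists lay within 1500 bp of an annotated start, and pairs with either summit outside were left out. The strongest summit lay downstream of the start in 73.7% of these pairs in both lists. Of 942 of these pairs that shifted, 474 moved toward the gene body and 468 away from it. It crossed the start from downstream to upstream in 279 pairs and in the reverse direction in 275. The largest shifts among strong single-summit pairs were 305 bp in RIPOR1, 279 bp in SLC25A36, a mitochondrial carrier gene, and 266 bp at ZNF619. The next were 263 bp in TMOD3, an actin-capping gene, 258 bp in UMAD1 and 247 bp at UFSP2. At UFSP2, a protease gene of the UFM1 pathway, the region was strong in both lists, with folds of 20.5 and 23.1 and widths of 1448 and 1700 bp.

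**Figure D4:**
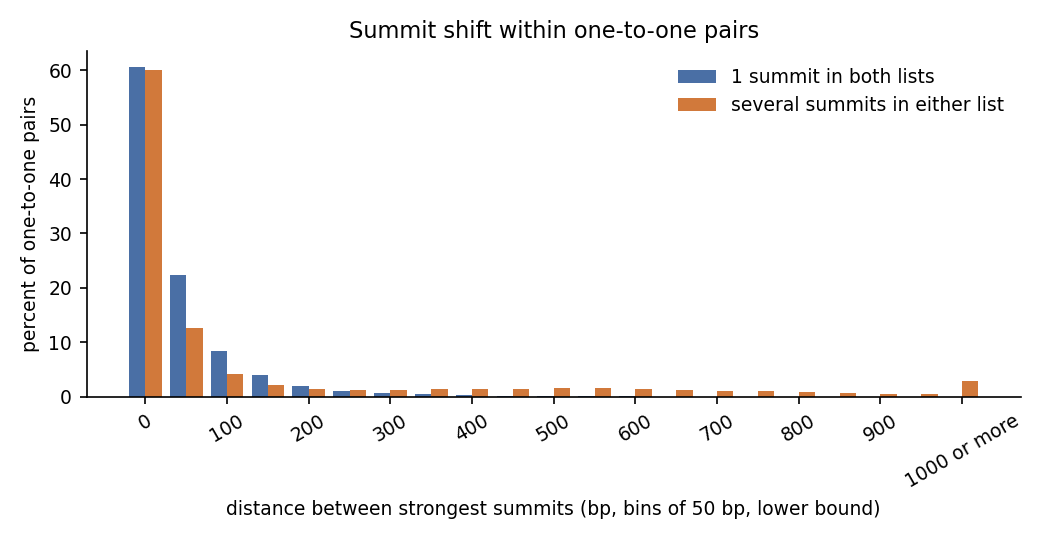
Distance in bp between the strongest summits of one-to-one pairs, as a percent of pairs in bins of 50 bp, for pairs with 1 summit in both lists and for the others. Shifts past 200 bp are 4.67% of single-summit pairs. The pairs with several summits have a second, low and broad rise around 500 to 600 bp, and the last bin holds all shifts of 1000 bp or more.

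Around genes, the covered length changed little and more often downward. For each protein-coding gene, the bp of H3K27ac regions within the gene and 10 kb to each side were summed, and 13748 of 19974 genes with a mean of at least 2 kb were compared, with 500 bp added to both values before the log2 ratio. The median log2 ratio (induced over uninduced) was -0.02, and 7717 genes, or 56.1%, were below zero. Past 1.5-fold, 232 genes were lower in induced cells (1.69%), in 220 separate windows, and 78 were higher (0.567%), in 69 windows. Neighbouring genes can share regions, so genes are not independent.

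The 8 genes with the lowest ratios, among those with a mean of at least 5 kb over both lists, lost whole regions as well as width. MYT1, a zinc finger factor gene of neural cells, had 7 regions over 10.137 kb in uninduced and 4 over 3.198 kb in induced cells, a log2 ratio of -1.52. Its strongest fold was 15.2 and 5.03. ABCB1, which encodes the drug efflux pump P-glycoprotein and is a known TCF target in colorectal cells, had 12 regions over 10.133 kb and 6 over 3.303 kb, a log2 ratio of -1.48. The other 6 were KIAA0825 (9.877 and 3.446 kb), CCBE1 (8.271 and 2.900 kb), CDK15 (8.561 and 3.107 kb), ADAM12 (7.883 and 3.205 kb), HSD17B12 (10.354 and 4.480 kb) and AFG1L (7.738 and 3.317 kb). At KIAA0825, CDK15 and AFG1L the fold of the strongest region was not lower in the induced list: it was 17.9 and 19.9 at KIAA0825, 7.70 and 9.22 at CDK15, and 29.6 and 36.6 at AFG1L.

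Of the 8 genes with the highest ratios under the same minimum, MUC4 and B3GNT6 belong to mucin biology. MUC4, a membrane mucin gene, had 4.004 kb in uninduced and 7.421 kb in induced cells, a log2 ratio of 0.81. All 3 of its uninduced regions were wider in induced cells, at 1869 and 2594 bp, 726 and 1912 bp, and 1999 and 2878 bp, and 2 further regions appeared. B3GNT6, which makes the core 3 O-glycans of colonic mucin, had 3.628 and 7.167 kb, a log2 ratio of 0.89. ASPG, an asparaginase gene, had the highest ratio in this group, 0.97, with 6 regions over 6.352 kb and 12 over 12.921 kb. The others were TNXB (6.177 and 10.691 kb), SLC38A2, an amino acid transporter gene (3.821 and 6.703 kb), NEURL1 (7.001 and 11.750 kb), HAVCR1 (6.919 and 11.614 kb) and SYT13 (4.622 and 7.712 kb). With 50 kb to each side in place of 10 kb, B3GNT6, MUC4, NEURL1, SLC38A2, SYT13 and TNXB no longer passed 1.5-fold (log2 ratios from 0.30 to 0.55).

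ABCB1 and HAVCR1 are shown as examples of a region edge that crossed the 300-base RefSeq promoter (GRCh38.p14, 250 bases before to 50 after a gene start). Edges also crossed promoters of other named genes. Among them were SESN2 (300 bases covered in uninduced and 117 in induced cells), DDIT3 (300 and 177), FGF21 (300 and 221) and F2 (185 and 300). Capitals mark CTTTGA or its reverse complement TCAAAG, the core letters of the TCF motif. At ABCB1 (chr7:87600835-87601134, minus strand) regions covered all 300 bases in uninduced cells and 168 in induced cells. Its match starts 24 bases after the gene start and stayed covered. At HAVCR1 (chr5:157059067-157059366, minus strand), which encodes a phosphatidylserine receptor, 93 bases were covered in uninduced and all 300 in induced cells, and it holds no match.
ABCB1: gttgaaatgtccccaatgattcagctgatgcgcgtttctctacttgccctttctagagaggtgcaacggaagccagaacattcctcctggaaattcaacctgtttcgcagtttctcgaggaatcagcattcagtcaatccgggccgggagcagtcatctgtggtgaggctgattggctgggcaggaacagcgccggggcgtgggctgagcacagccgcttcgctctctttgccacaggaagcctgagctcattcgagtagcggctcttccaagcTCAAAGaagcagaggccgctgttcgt
HAVCR1: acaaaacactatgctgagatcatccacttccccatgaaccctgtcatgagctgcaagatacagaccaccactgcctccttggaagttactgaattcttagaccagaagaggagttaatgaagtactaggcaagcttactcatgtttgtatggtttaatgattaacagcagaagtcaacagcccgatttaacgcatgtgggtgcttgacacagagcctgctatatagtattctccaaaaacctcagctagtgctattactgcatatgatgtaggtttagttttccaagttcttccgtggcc

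The guanylate cyclase C pathway carries the intestinal peptide hormones guanylin and uroguanylin to a receptor that raises cyclic GMP and drives fluid secretion, and loss of guanylin is a common feature of colorectal tumours. Of its 6 genes all 6 were scored, none passed 1.5-fold in either direction, and 3 were below zero, with a median of -0.07. GUCA2A, the guanylin gene, had 3.857 kb in 2 regions in uninduced and 4.821 kb in 5 regions in induced cells, a log2 ratio of 0.29. The region over its start (chr1:42163595-42166716) was 3122 bp wide with a fold of 15.04. In induced cells it was met by a region of 2168 bp with a fold of 23.9 and one of 682 bp, 126 bp apart, and the strongest summit stayed within 6 bp. The induced fold was thus the higher one over a narrower region, in a list whose strong regions ran higher in general. Regions of 285 and 642 bp further on had no uninduced partner. GUCA2B, the uroguanylin gene next to it, had 2.226 and 1.926 kb from the same region. GUCY2C, the receptor gene, had 5.487 and 4.481 kb, a log2 ratio of -0.27, and a region of 2155 bp beyond its upper end became 2 of 802 and 652 bp. With 50 kb to each side GUCY2C stood at 0.13 and GUCA2B at 0.04, on the other side of zero, and GUCA2A near zero. CFTR, the chloride channel gene downstream in the pathway, had 65.372 and 66.712 kb, and SLC9A3, a sodium-proton exchanger gene, 5.964 and 6.758 kb.

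Covered length around Wnt feedback and TCF target genes was mostly slightly lower. Of 40 listed symbols 39 were matched and 37 scored. Of these 2 were lower past 1.5-fold and none higher, against 1.69% and 0.567% of all scored genes. Like all 11 lists, this one was chosen with earlier results of these data known, so its counts are a description and no independent support. Below zero were 28 of 37 (75.7%), with a median of -0.08, against 56.1% and -0.02 for all scored genes. Shares of 68.4% to 76.7% were also found in the cell cycle, stress and housekeeping lists below, but this depended on the setting. With 50 kb to each side 30 of 38 Wnt genes were below zero, against 19 of 30, 7 of 19 and 10 of 20 in those lists. With regions of −log10 q of at least 5 alone it was 26 of 37, against 18 of 30, 14 of 19 and 12 of 19. Over the gene body alone the Wnt list did not stand out. There 18 of 31 Wnt genes were below zero, against 9 of 16, 7 of 14 and 9 of 15, and 4515 of 8038 of all scored genes. With the 60000 highest regions of each list it was 26 of 37, against 14 of 19 housekeeping genes. The 2 that were lower were ADRA2C, from 3.655 to 1.808 kb (log2 ratio -0.85), and KREMEN1, a Dickkopf co-receptor gene, from 11.774 to 7.256 kb (-0.66). At KREMEN1 the number of regions was 7 in uninduced and 9 in induced cells. The strongest of them, 2735 bp with a fold of 32.5, was met by 3 pieces of 1891, 303 and 379 bp, the first with a fold of 17.7. With 50 kb to each side KREMEN1 stood at -0.35 and no longer passed. Next came NKD1, a feedback inhibitor gene, with 27.505 and 19.893 kb (-0.46, and -0.60 with regions of −log10 q of at least 5 alone, which passes), and VSNL1 with 38.273 and 30.196 kb (-0.34). LGR5, the R-spondin receptor gene that marks intestinal stem cells, had 13.053 and 11.135 kb (-0.22). ZNRF3, the partner ligase of RNF43, had 115.691 and 100.461 kb (-0.20). MYC had 11.515 and 11.100 kb (-0.05), and PPARD was the highest of the list with 13.169 and 17.487 kb (0.40). Of the scored genes on the list, 13 (35.1%) had a split in their neighbourhood and 10 (27.03%) a merge, against 26.1% and 16.9% of all scored genes. Windows of wide genes hold more regions, and this was not adjusted for.

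SP5, a zinc finger repressor gene and a direct Wnt target, is a case in which width was nearly equal and the listed fold was not. A single region covered it in both lists, 5789 bp in uninduced (chr2:170711030-170716818) and 5788 bp in induced cells. Within it the number of summits was 4 and 6 and the fold enrichment 21.1 and 43.4, with −log10 q of 237.5 and 288.1 and the strongest summit 20 bp away. Of the 14686 strong pairs, 162 had an induced fold more than 2 times the uninduced one. The promoters of SP5 (chr2:170715087-170715386, plus strand) and GUCA2A (chr1:42164696-42164995, minus strand) were covered over all 300 bases in both lists. They are shown as those of a Wnt target and of the guanylin gene, with the same letters in capitals. SP5 has 3 matches, starting 147, 109 and 83 bases before the gene start, of which the middle one reads CTTTGAT, and GUCA2A has 1, starting 177 bases before. The promoter of LGALS4 (chr19:38812896-38813195, minus strand), a colonocyte gene described next, is covered over all 300 bases in both lists and holds no match.
SP5: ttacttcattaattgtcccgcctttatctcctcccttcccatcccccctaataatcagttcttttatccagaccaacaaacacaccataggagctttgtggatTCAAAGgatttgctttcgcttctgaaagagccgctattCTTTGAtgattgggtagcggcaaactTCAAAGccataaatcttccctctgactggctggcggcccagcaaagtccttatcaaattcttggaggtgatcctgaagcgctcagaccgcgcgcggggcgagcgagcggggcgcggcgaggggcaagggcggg
GUCA2A: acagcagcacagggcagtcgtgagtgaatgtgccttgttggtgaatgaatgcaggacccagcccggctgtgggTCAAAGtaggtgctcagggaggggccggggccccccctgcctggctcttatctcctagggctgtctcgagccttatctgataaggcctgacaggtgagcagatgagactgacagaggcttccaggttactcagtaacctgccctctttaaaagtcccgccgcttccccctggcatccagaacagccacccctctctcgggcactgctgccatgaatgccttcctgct
LGALS4: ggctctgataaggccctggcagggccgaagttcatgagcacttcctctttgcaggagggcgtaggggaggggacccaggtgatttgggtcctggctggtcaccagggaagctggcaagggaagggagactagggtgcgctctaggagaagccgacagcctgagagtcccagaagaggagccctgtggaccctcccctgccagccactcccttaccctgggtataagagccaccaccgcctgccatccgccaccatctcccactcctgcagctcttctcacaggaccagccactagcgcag

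Among 40 colonocyte differentiation genes 28 were scored, 3 were higher past 1.5-fold and none lower, against 0.567% and 1.69% of all scored genes. This list too was chosen with earlier results of these data known. Above zero were 17 of 28 (60.7%), with a median of 0.04, against 43.7% and -0.02 for all scored genes. PHGR1, a small protein gene of mature colonocytes, had 3 regions over 1.228 kb of its neighbourhood in uninduced and 8 over 4.157 kb in induced cells (log2 ratio 1.43). Of the induced regions 5 had no uninduced partner, and their −log10 q lay between 2.74 and 8.09, so they were weak. LGALS4, the galectin-4 gene, had 2.733 and 5.137 kb (0.80). The region over its start was 1836 bp with a fold of 8.30 in uninduced and 2403 bp with a fold of 11.3 in induced cells, and its strongest summit lay 654 bp away. ANPEP, the gene of the brush border aminopeptidase N, had 4 regions over 3.603 kb and 7 over 6.380 kb (0.75). CEACAM6 and CEACAM5, adhesion molecule genes next to each other, had 5.695 and 8.188 kb (0.49) and 10.310 and 14.230 kb (0.45). KRT20, the keratin of mature colonocytes, went the other way: it was too low to be scored, with 3 regions over 1.284 kb in uninduced cells and none in induced cells. With regions of −log10 q of at least 5 alone, 26 genes of the list were scored, 2 were higher, and the median was -0.02, on the other side of zero. PHGR1 could not be scored there. With 50 kb to each side no gene of the list passed 1.5-fold, and PHGR1 stood at 0.35, ANPEP at 0.38 and LGALS4 at 0.24.

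**Figure D5:**
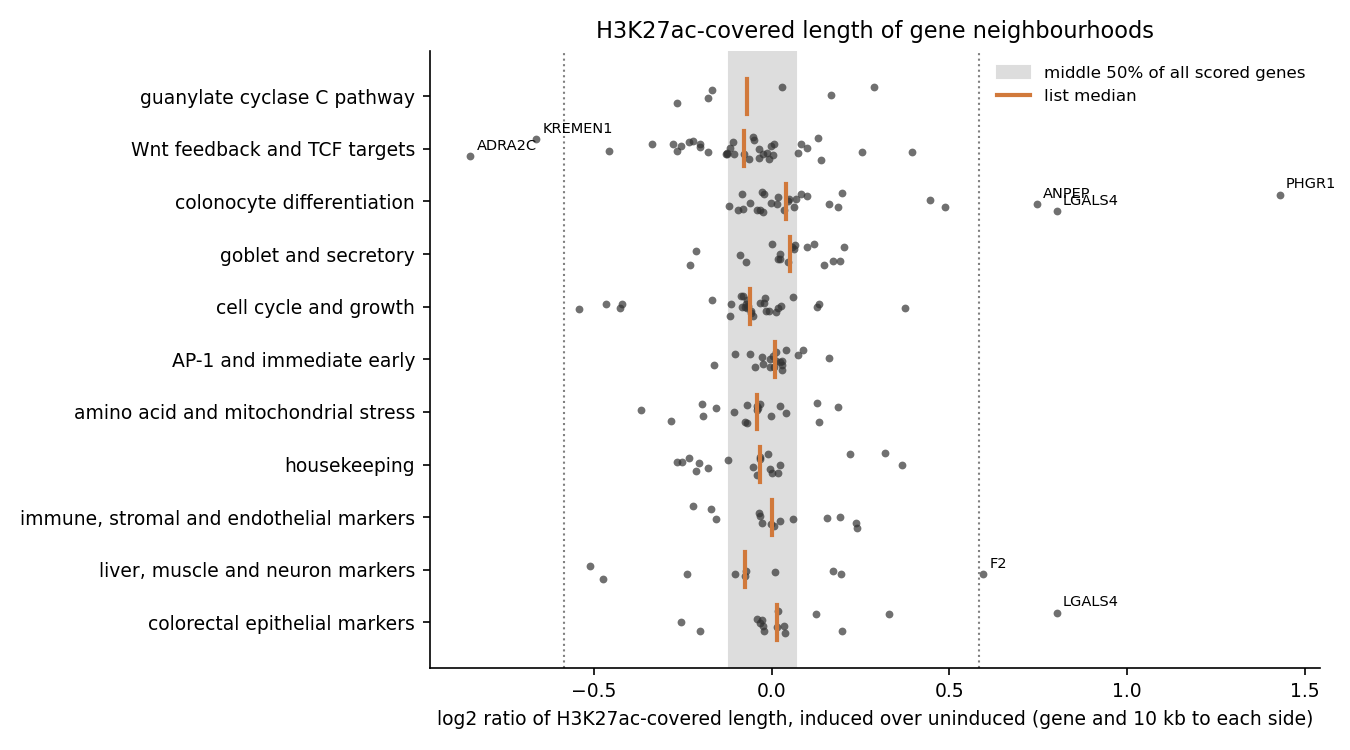
Log2 ratio of H3K27ac-covered length, induced over uninduced, for each scored gene of 11 lists, with the list median as a bar, 1.5-fold as dotted lines and the middle 50% of all scored genes shaded. Genes past 1.5-fold are named, and the medians lie between -0.08 (Wnt feedback and TCF targets) and 0.05 (goblet and secretory).

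The remaining lists moved little. Of 18 scored goblet and secretory genes none passed 1.5-fold and 13 were above zero, with a median of 0.05, from MUC13 at -0.23 to AGR3 at 0.20. With regions of −log10 q of at least 5 alone MUC5B, a gel-forming mucin gene, passed at 0.70, and TFF3, at -0.21, stood at 0.01 with 50 kb to each side. Of 30 cell cycle and growth genes none passed and 23 (76.7%) were below zero, with a median of -0.06. The lowest were CCND2, the cyclin D2 gene, with 5.017 and 3.286 kb (-0.54), RRM2, a ribonucleotide reductase subunit gene, with 13.960 and 9.975 kb (-0.47), TERT (-0.43) and NPM1, the nucleophosmin gene (-0.42). Over the gene body alone CCND2 (-0.79) and RRM2 (-0.92) passed 1.5-fold. Of 19 housekeeping genes 13 (68.4%) were also below zero, with a median of -0.03 and ACTB highest at 0.37. Of 19 amino acid and mitochondrial stress genes, a list that bears on doxycycline, none passed and 14 (73.7%) were below zero, with a median of -0.04. With 50 kb to each side none passed either, but 7 of 19 were below zero, with a median of 0.03. Of 20 AP-1 and immediate early genes none passed, and all lay between -0.16 and 0.16. Of 14 scored immune, stromal and endothelial markers none passed. Of 10 scored liver, muscle and neuron markers F2 alone passed, with 2.463 and 3.978 kb (0.60), and with 50 kb to each side it stood at 0.41.

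For CTTTGA on either strand, the intervals of the shares in promoters of changed genes took in the share in all promoters. It occurred in 10.98% of 22132 RefSeq promoters of protein-coding genes, in 12.0% (8.65 to 16.5) of 266 promoters of the genes with lower covered length, and in 14.1% (8.61 to 22.3) of 99 promoters of those with higher covered length. The longer CTTTGAT, which contains it, occurred in 1.99%, 2.63% and 2.02%. The 266 promoters belonged to 184 of the 232 lower genes and the 99 to 52 of the 78 higher ones, the rest having none listed. Windows of 1 gene can overlap, so promoters are not independent, which the intervals leave out. These windows hold promoters alone, and letters under summits elsewhere were not searched.

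In the Pol II lists of the same cells the number of regions moved the other way, from 57247 to 50665, while splits again outnumbered merges. Among Pol II regions 4396 were split and 1141 were merges, a split share of 79.4% (78.3 to 80.4) against 65.5% for H3K27ac. Of one-to-one Pol II pairs past 1.5-fold 5874 were narrower and 741 wider in induced cells. The intervals of the 2 marks do not overlap, but each rests on 1 list per condition and the difference has no replicate check.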

How the data were processed

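H3K27ac and Pol II ChIP-seq of DLD1 cells was used; each list serves 2 samples, and no column of per-sample values was left unmatched. Per the submitters' processing notes, which give no roles, the tools included MACS2 2.1.1.20160309, BWA 0.7.17-r1188, deepTools 3.5.0 and SAMtools 1.10, and builds hg19 and hg38 are named. Positions are on GRCh38. No source used here says whether replicates were pooled. The deposited lists give, per summit, a fold enrichment (a ratio), a −log10 p-value and a −log10 q-value, and the summit's offset; these are the authors' and served to rank or filter regions within a list and to describe them side by side, with no test between lists.

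Summits outside the autosomes and X (at most 0.603%) were left out. A region's −log10 q and fold are the maxima over its summits. Overlap meant at least 1 bp, and the 74541 overlapping pairs equalled the count by bedtools 2.31.1. Gene positions came from RefSeq (GRCh38.p14), which gave 19974 genes coding for protein. Python 3.11.15 with pandas 2.3.3 was used, and the code was tested on simulated lists. Called means past 1.5-fold for widths and covered length and past 200 bp for shifts; no test was possible with 1 list per condition. The genes named are 11 fixed genes, the 8 lowest and 8 highest ratios among genes with a mean of 5 kb or more over both lists, up to 4 genes per list by size of ratio, and the 6 largest pairs, splits, merges and shifts, with the nearest gene within 100 kb; CTTTGA was searched by letters on both strands in RefSeq promoters, which the table gave for 45 of 67 named genes. KRT20, CEACAM5, VSNL1, ZNRF3, CFTR and SLC9A3 were named after their values were seen. The regions, the 11 gene lists and the measures were chosen with earlier results of these data known. Alternatives tried were stricter or equal-sized lists, other overlaps, joining distances, folds, flanks, added bp and scaling.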

Additional observations from a re-analysis of the deposited data

How the results depend on the processing

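None of the values below reversed, while the medians of several gene lists changed sign. With regions of −log10 q of at least 5 those of the colonocyte (-0.02), AP-1 (-0.001) and colorectal epithelial (-0.01) lists fell below zero. With 50 kb to each side those of the guanylate cyclase C (0.02) and stress (0.03) lists rose above zero. That of the immune, stromal and endothelial list fell below it there (-0.02). Of one-to-one pairs past 1.5-fold, 59.6% were narrower (4622 narrower and 3134 wider); this was 62.1% with regions of −log10 q of at least 5 (3325 and 2030), 63.1% with the 60000 highest regions of each list (3128 and 1833), 57.3% with regions under 1000 bp apart joined (4522 and 3365) and 63.4% past 2-fold (1982 and 1145). Of pairs whose summit number differed, 56.9% gained summits, against 56.0% in both stricter lists (10268 and 8054, and 10189 and 8016) and 54.7% with summits of −log10 q of at least 5 (8343 and 6923). The split share of 65.5% was 67.6% (4072 and 1949) and 68.1% (3763 and 1764) in the stricter lists, 52.6% (965 and 871) with regions under 1000 bp apart joined and 58.7% (350 and 246) at −log10 q of at least 80. Shifts were 15.5% of pairs, 21.5% (11217) with the strongest summit taken by fold, 8.65% (4509) past 500 bp and 4.67% (813) in single-summit pairs. Of called genes 74.8% were lower, against 65.0% (571 and 308) with all genes covered in either list and 69.1% (208 and 93) with the ratio divided by its median. The comparison at −log10 q of 80, the one in single-summit pairs and 2 with regions of at least 300 bp were chosen after seeing the data. Of 22 called genes named, 11 fell below 1.5-fold in some setting, none reversed. The causes were not tested. No paired analysis was possible because the 2 samples of a group share 1 list. Weak regions set most width calls and most shifts of single summits, and read totals per list are not known.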

Other observations

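In windows of 1 Mb with at least 20 kb of H3K27ac regions (1810 windows), 1 window was higher past 1.5-fold in induced cells and 13 were lower, and 63.6% were below zero. The higher one, on chromosome 3 from 24000001 to 25000000, holds the nuclear receptor genes THRB and RARB and had 69.5 kb in uninduced and 107.8 kb in induced cells (log2 ratio 0.63). The next highest window stood at 0.38. The lowest window, on chromosome 12 from 83000001 to 84000000, holds TMTC2 and had 31.85 and 14.97 kb (-1.09). Windows with CADM1, a cell adhesion gene, and NTM, both on chromosome 11, were also among the 5 lowest, with 30.9 and 19.2 kb, and 29.0 and 17.8 kb. Width ratios of neighbouring one-to-one pairs, less than 20 kb apart, had a Pearson r of 0.19 and a Spearman rho of 0.21 across 29320 neighbours, which share both lists and are not independent.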
